A study of Mus musculus with 15 samples.

Results

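Chemokines are small secreted proteins that direct the movement of blood cells, and their receptors are G protein-coupled receptors on the cells that respond. The genes described here are the 39 of 17454 genes in the deposited expression table whose symbol begins with Ccl, Ccr, Cxcl or Cxcr followed by a digit, 23 of them ligands and 16 receptors. The rule used names and no measured value. CC ligands signal mainly through CC receptors and CXC ligands through CXC receptors, and several ligands share a receptor. Inflammatory chemokines are induced by NF-κB in myeloid cells, whereas Cxcl12 and its receptor Cxcr4 are best known for holding blood progenitors in their niche.

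The study asked what the loss of Ezh2, the catalytic subunit of Polycomb repressive complex 2, does to erythro-myeloid progenitors (EMPs) of the mouse yolk sac (YS) at E10.5. EMPs had been sorted from YS of C57BL/6 embryos as lineage-negative, SCA1-negative cells with KIT, CD41 and CD16/32, and 500 cells per library were given in the sample labels. The paper gives a smaller number of cells, and which of them applies is not known here. All embryos carried Ezh2 alleles with loxP sites (Ezh2fl/fl). The 5 Tie2-Ezh2-KO libraries (replicates 7, 9, 11, 13 and 17) also carried a Tie2-Cre transgene, and the 5 Vav-Ezh2-KO libraries (replicates 1, 9, 10, 26 and 28) a Vav-Cre transgene. Embryos of the same lines without Cre gave 3 Tie2-Ezh2-WT libraries (replicates 4, 10 and 12) and 2 Vav-Ezh2-WT libraries (replicates 4 and 6), and these 5 were pooled as WT. Tie2-Cre is active in endothelium, from which EMPs arise, as well as in the blood cells that follow, and Vav-Cre (Vav-iCre in the paper) in blood cells. Cre line and stage of deletion therefore cannot be told apart. Values below are listed in the order of the replicates given here.

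Values were RPKM, which corrects for gene length and depth, so levels of different genes can be compared. Whole reads recovered from the values gave 10407398 to 41025074 reads on genes per library (median 16091836). Ezh2, counted over the whole gene, stood at 36.9, 39.5 and 30.1 RPKM in Tie2-Ezh2-WT, 42.0 and 41.5 in Vav-Ezh2-WT, 27.8, 26.2, 24.8, 29.5 and 26.5 in Tie2-Ezh2-KO, and 33.7, 42.4, 37.8, 38.1 and 34.0 in Vav-Ezh2-KO. Every Tie2-Ezh2-KO library lay below every WT library, and of the Vav-Ezh2-KO libraries 4 lay within the WT range and replicate 9 just above it. Transcripts that lack only the deleted exons still count here, so the level over the whole gene does not check the deletion. Among the 8 EMP markers listed for the check of cell identity, all 8 exceeded 1 RPKM, with Kit at 15.2 to 45.8 RPKM, Itga2b (CD41) at 16.7 to 41.7 and Fcgr3 (CD16) at 66.9 to 194 RPKM over the 15 libraries.

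A few chemokine genes made up most of the signal. Of the 39 genes, 10 had reads in all 15 libraries, 4 exceeded 1 RPKM in all 15 (Cxcr2, Ccl3, Ccl25 and Ccl17), and 25 exceeded 0.2 RPKM in at least 1 library. Another 9 had reads but stayed at or below 0.2 RPKM, and 5 were at 0 in all 15 libraries (Ccl8, Ccl12, Ccl19, Cxcl11 and Ccr9). The number of members above 0.2 RPKM was 10 to 14 in WT, 15 to 17 in Tie2-Ezh2-KO and 13 to 16 in Vav-Ezh2-KO libraries. The 10 came from Tie2-Ezh2-WT 4, the library with the fewest reads on genes (10407398). Above 1 RPKM the numbers were 6 to 12, 6 to 9 and 7 to 11. The same count over all genes was not made, so no difference between groups is drawn from these numbers. Ccl3 gave 23.6 to 74.6% of the summed ligand RPKM of a library and Cxcr2 gave 81.8 to 98.0% of the summed receptor RPKM.

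**Figure D1:**
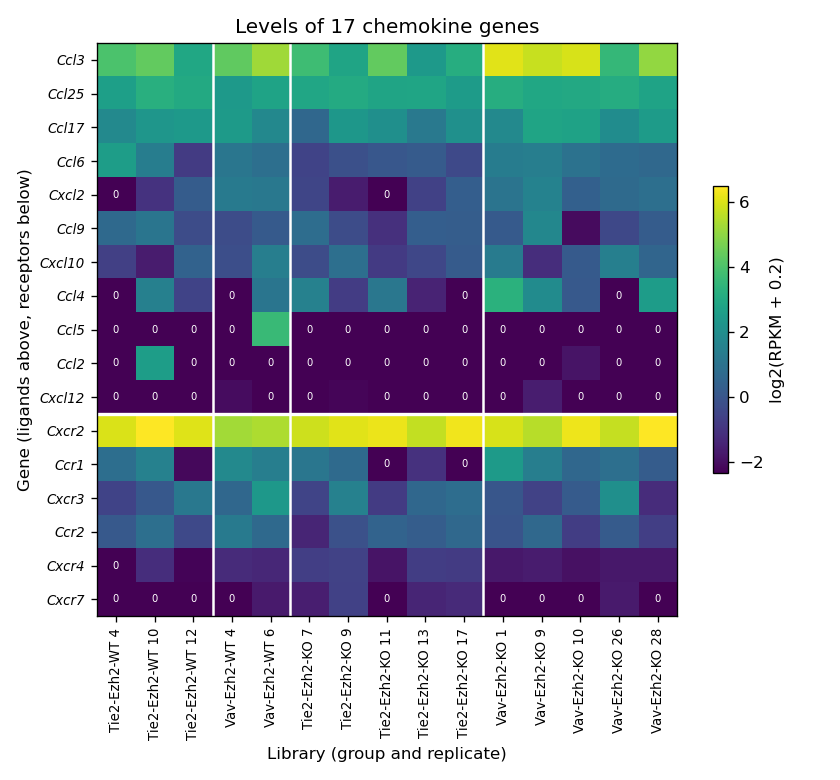
Level of the 17 members chosen by level, calls or Cxcl12 signalling (vertical axis) in each of the 15 libraries (horizontal axis, by group and replicate), as log2(RPKM + 0.2), with 0 marking genes without reads. Ccl3, Ccl25 and Ccl17 among ligands and Cxcr2 among receptors were seen in every library, and Ccl5 and Ccl2 stood out in 1 library each.

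The 3 comparisons that involve a knockout ask whether losing Ezh2 from endothelium onward, or from blood cells onward, changes expression, and whether the outcomes differ. Tests were made with limma on log2(RPKM + 0.2), with p adjusted over every gene that exceeded 0.2 RPKM in any library compared. Adding 0.2 shrinks the log2 changes of weakly expressed genes. Against WT, 0 of the 24 members tested passed an adjusted p of 0.05 in Tie2-Ezh2-KO, where 2.73% of 14154 genes passed, and 6 members had an unadjusted p under 0.05, as 11% of all genes did. In Vav-Ezh2-KO, 0 of 22 members tested passed, where 0.00733% of 13646 genes did (1 gene), and 2 members had an unadjusted p under 0.05, as 7.93% of all genes did. Limma-voom on the recovered reads also called 0 members in both comparisons (4 and 2 at an unadjusted p under 0.05). Both use the same 5 WT libraries. Between the knockouts, 3 of 23 members tested passed, all lower in Tie2-Ezh2-KO, where 3.51% of 14120 genes passed and 0.871% passed as lower. They were the ligands Ccl3, Ccl6 and Cxcl2, and 7 members had an unadjusted p under 0.05, as 16.6% of all genes did. Of the 23, 13 were higher and 10 lower in Tie2-Ezh2-KO, with a median log2 change of 0.077 against 0.041 over all genes. The members as a set were thus not lower. Limma-voom called 1, Ccl3. Without Tie2-Ezh2-KO 9, 969 of 14004 genes passed, 339 of them lower, in place of 495 and 123.

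Ccl3, a macrophage inflammatory protein that binds Ccr1, was the most abundant ligand in most libraries. It stood at 13.2, 6.79, 20.6, 5.28 and 8.81 RPKM in Tie2-Ezh2-KO and at 67.7, 53.2, 61.0, 11.4 and 32.8 RPKM in Vav-Ezh2-KO. In WT it stood at 15.7, 20.7 and 7.37 RPKM in Tie2-Ezh2-WT and 20.2 and 37.3 in Vav-Ezh2-WT. Of the Vav-Ezh2-KO libraries, 4 lay above all Tie2-Ezh2-KO libraries and replicate 26 lay inside their range, and both knockouts overlapped WT. Mean levels were 10.9 RPKM in Tie2-Ezh2-KO and 45.2 in Vav-Ezh2-KO (n = 5 each), a log2 change of -1.96 ± 0.44 (SE, limma adjusted p = 0.0222; two-sided exact permutation p = 0.0238). The call was lost without Tie2-Ezh2-KO 13 (limma adjusted p = 0.0571) or Vav-Ezh2-KO 1, 9 or 10 (0.0598, 0.0586 and 0.0582), without a filter on low values (0.0698) and without the trend (0.0711), within a range of 0.00125 to 0.0711 over 20 alternatives. Against pooled WT the change was -0.87 ± 0.39 in Tie2-Ezh2-KO (limma adjusted p = 0.430) and 1.09 ± 0.45 in Vav-Ezh2-KO (limma adjusted p = 0.598). Over 21 alternatives these ran from -1.18 to -0.46 and from 0.48 to 1.52, and neither passed under any.

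Ccl6, a CC ligand of myeloid cells that binds Ccr1, was lower in abundance. Its values were 0.481, 0.683, 0.846, 0.960 and 0.563 RPKM in Tie2-Ezh2-KO and 2.42, 2.50, 1.82, 1.51 and 1.36 RPKM in Vav-Ezh2-KO. WT libraries gave 5.75, 2.47 and 0.373 RPKM in Tie2-Ezh2-WT and 2.01 and 1.64 in Vav-Ezh2-WT. The knockouts did not overlap, and 4 of 5 WT libraries lay above every Tie2-Ezh2-KO library, Tie2-Ezh2-WT 12 being the exception. The log2 change between knockouts was -1.22 ± 0.27 (SE, limma adjusted p = 0.0225; exact permutation p = 0.00794, the smallest that 252 divisions allow). The call was lost without Tie2-Ezh2-KO 7 or 17 (limma adjusted p = 0.0609 and 0.0520) or Vav-Ezh2-KO 1 or 9 (0.0668 and 0.0620), by limma-voom (0.0742) and in the single fit of all 15 libraries (0.140), within a range of 0.0101 to 0.140 over 20 alternatives, whose log2 changes ran from -1.39 to -0.76. Against WT, Ccl6 had a log2 change of -1.21 ± 0.48 in Tie2-Ezh2-KO (limma adjusted p = 0.3), and this became -1.67 ± 0.36 (limma adjusted p = 0.0258, range 0.0258 to 0.844 over 21 alternatives) without Tie2-Ezh2-WT 12. In Vav-Ezh2-KO the log2 change against WT was 0.01 ± 0.46.

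Cxcl2, a neutrophil attractant that binds Cxcr2, had 0 to 58 reads per library. It stood at 0.522, 0.121, 0, 0.447 and 1.03 RPKM in Tie2-Ezh2-KO and at 1.90, 2.81, 1.10, 1.44 and 1.67 RPKM in Vav-Ezh2-KO. The WT values were 0, 0.292 and 0.990 RPKM in Tie2-Ezh2-WT and 2.23 and 2.08 in Vav-Ezh2-WT. Libraries of the Tie2 line, with or without Cre, lay below those of the Vav line, with or without Cre, and no library of one line reached into the other. The gap was narrow, from 1.03 RPKM in Tie2-Ezh2-KO 17 to 1.10 in Vav-Ezh2-KO 10. How many of all genes separate the lines in this way was not counted. Whether the separation is unusual is therefore not known, for Cxcl2 or for Tnf below. The log2 change between knockouts was -1.88 ± 0.44 (SE, limma adjusted p = 0.0268; exact permutation p = 0.00794). Of all genes tested, 1.67% were lower in Tie2-Ezh2-KO with no overlap between the knockouts, as Ccl6 and Cxcl2 were. The share of divisions into 5 and 5 libraries that gives this by chance is 0.397%. The call of Cxcl2 was lost without Tie2-Ezh2-KO 11 (limma adjusted p = 0.0543) or Vav-Ezh2-KO 1, 9 or 28 (0.0624, 0.0709 and 0.0657), with a pseudocount of 0.05 (0.0568), without a filter (0.0646) and by limma-voom (0.0611), within a range of 0.009 to 0.0709 over 20 alternatives. Its log2 change ran from -2.68 by limma-voom to -0.98 with a pseudocount of 1. Without Vav-Ezh2-KO 1 or 9, none of the 3 ligands passed.

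The WT libraries of the 2 lines were compared next, since a difference between the knockouts can also be a difference between the lines. None of the 19 members tested passed in limma between Tie2-Ezh2-WT and Vav-Ezh2-WT, where 0.153% of 13100 genes passed, and 3 had an unadjusted p under 0.05 (Cxcr2, Cxcl2 and Ccl3), as 8.92% of all genes did. Limma-voom also called 0, with 4 at an unadjusted p under 0.05. With 3 against 2 libraries an exact permutation test cannot go below p = 0.1. Cxcl2 had a log2 change of -2.27 ± 0.67 between the WT groups (limma adjusted p = 0.352, and 0.0499 without Tie2-Ezh2-WT 12, range 0.0499 to 0.958 over 15 alternatives), and Ccl3 one of -1.02 ± 0.40 (limma adjusted p = 0.513). Both were lower in the Tie2 line, as between the knockouts, whereas Ccl6 had a log2 change of 0.05 ± 0.79. Each knockout was then set against the WT of its own line in one model of 15 libraries. In that interaction of Cre line and genotype 0 of 25 members passed, where 0.181% of 14394 genes passed, and 5 had an unadjusted p under 0.05, as 6.54% of all genes did. Limma-voom called 0 as well, with 4 at an unadjusted p under 0.05. The interaction was -0.93 ± 0.78 on the log2 scale for Ccl3, -1.27 ± 0.78 for Ccl6 and 0.39 ± 0.85 for Cxcl2 (limma adjusted p = 0.975, 0.898 and 0.990). For Cxcl2 the difference between the knockouts was thus matched by one of like size between the WT groups, and effects of line and of deletion cannot be told apart for the 3 genes.

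**Figure D2:**
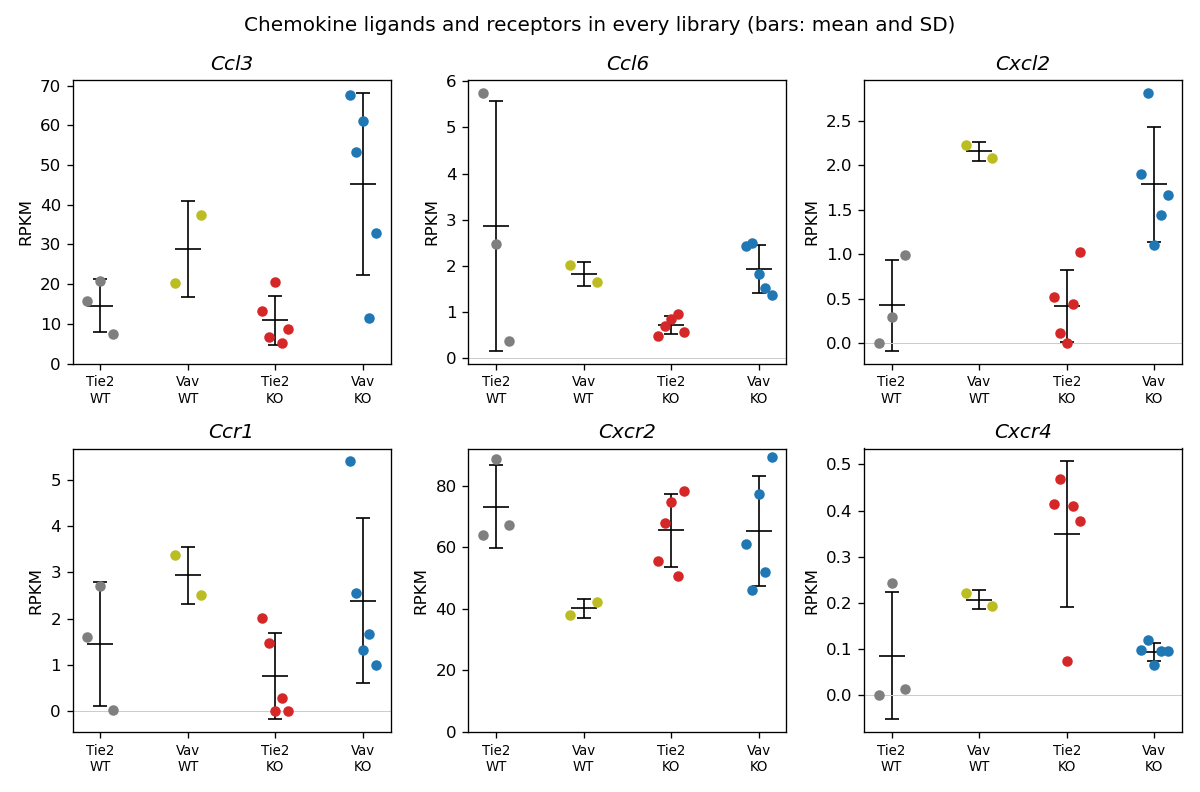
RPKM (vertical axes) of 3 ligands and 3 receptors in each library (points) of the 4 groups, with mean and SD. Cxcl2 separated the Vav line from the Tie2 line in WT as well as KO libraries, by a narrow gap between 1.03 and 1.10 RPKM. Ccl6 was low in all 5 Tie2-Ezh2-KO libraries and in Tie2-Ezh2-WT 12.

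Genes known to induce inflammatory chemokines, or to be induced with them, were read as a list. It was chosen with earlier results of these data known, so its shares beside those of all genes describe it and are not independent support. Of the 29 listed, 28 were tested between the knockouts and 4 passed, all lower in Tie2-Ezh2-KO (Nfkbia, Tnfaip3, Ly96 and Tnf), where 0.871% of all genes passed as lower. The median log2 change was -0.29, against 0.04 over all genes tested, with 19 of 28 lower and 12 at an unadjusted p under 0.05, beside 16.6% of all genes. Between the WT groups the median was -0.50 against -0.03 over all genes, with 23 of 28 lower and 13 at an unadjusted p under 0.05, beside 8.92% of all genes. In the interaction, which sets these differences against each other gene by gene, the median was -0.04 against 0.06 over all genes, with 15 of 28 negative. Tnf, a cytokine that activates NF-κB, stood at 7.49, 8.41, 3.29, 2.97 and 3.65 RPKM in Tie2-Ezh2-KO and 31.7, 25.9, 20.1, 17.2 and 15 in Vav-Ezh2-KO, a log2 change of -2.13 ± 0.29 (limma adjusted p = 0.00081). In WT it stood at 9.32, 13.7 and 6.18 RPKM in Tie2-Ezh2-WT and 24.7 and 36.6 in Vav-Ezh2-WT, so the lines separated there too (-1.68 ± 0.31, limma adjusted p = 0.0936, and 0.0362 without Tie2-Ezh2-WT 12, range 0.0362 to 0.958 over 15 alternatives). Nfkbia, an NF-κB inhibitor that NF-κB itself induces, had a log2 change of -1.85 ± 0.18 between the knockouts (limma adjusted p = 0.000149) and of -1.70 ± 0.20 between the WT groups (limma adjusted p = 0.0318, range 0.0119 to 0.958 over 15 alternatives). Without Tie2-Ezh2-WT 10 it was -1.87 and did not pass (0.132), nor without Vav-Ezh2-WT 4 (-1.85, 0.781) or 6 (-1.56, 0.958), each of which leaves a single Vav-Ezh2-WT library. It also did not pass without a filter on low values (0.151) or without the trend (0.356), and passed under 10 of the 15. It was the single gene of the list that passed between the WT groups. Ly96, a partner of the endotoxin receptor, was also lower between the knockouts, but its change between the WT groups had the other sign and did not pass. It stood at 4.78, 5.87 and 6.10 RPKM in Tie2-Ezh2-WT, 3.01 and 3.41 in Vav-Ezh2-WT, 3.02, 3.58, 1.45, 2.41 and 3.09 in Tie2-Ezh2-KO and 6.40, 7.29, 6.89, 7.49 and 6.76 in Vav-Ezh2-KO. The log2 change was -1.35 ± 0.23 between the knockouts (limma adjusted p = 0.00366) and 0.76 ± 0.26 between the WT groups (limma adjusted p = 0.444), and Ly96 was the 1 gene of the list that passed in the interaction (-2.11 ± 0.37, limma adjusted p = 0.0302, range 0.00383 to 0.178 over 24 alternatives). It did not pass without Tie2-Ezh2-WT 10 or 12 (0.0894 and 0.0741), Vav-Ezh2-WT 4 or 6 (0.125 and 0.142) or Vav-Ezh2-KO 28 (0.0517), nor by limma-voom (0.178), and passed under 18 of the 24. Tnfaip3 had log2 changes of -1.40 ± 0.25 (limma adjusted p = 0.00566) and -0.79 ± 0.51 (limma adjusted p = 0.708).

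Against WT, 0 of 28 passed in either knockout, with 8 at an unadjusted limma p under 0.05 in Tie2-Ezh2-KO and 5 in Vav-Ezh2-KO, beside 11% and 7.93% of all genes. The median log2 change was -0.298 in Tie2-Ezh2-KO (20 of 28 lower), against 0.011 over all genes. In Vav-Ezh2-KO it was 0.175 (20 of 28 higher), against -0.015 over all genes. Whether these genes and the chemokines move for a shared reason was not tested.

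The promoters of the 3 ligands are shown because each of the genes was called lower in Tie2-Ezh2-KO than in Vav-Ezh2-KO. Each run covers 250 bases before to 50 after the gene start (RefSeq, GRCm38.p6), and capitals mark matches to the NF-κB consensus, to TATAAA or to the AP-1 letters TGANTCA on either strand. Ccl3 lies at chr11:83649329-83649628 and Ccl6 at chr11:83593038-83593337, both on the minus strand, and Cxcl2 at chr5:90903649-90903948 on the plus strand.
Ccl3: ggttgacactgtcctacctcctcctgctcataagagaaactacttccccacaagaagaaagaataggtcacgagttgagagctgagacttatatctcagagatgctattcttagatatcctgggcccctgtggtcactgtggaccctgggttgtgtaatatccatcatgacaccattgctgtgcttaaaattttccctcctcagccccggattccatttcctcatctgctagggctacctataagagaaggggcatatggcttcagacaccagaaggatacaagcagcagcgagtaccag
Ccl6: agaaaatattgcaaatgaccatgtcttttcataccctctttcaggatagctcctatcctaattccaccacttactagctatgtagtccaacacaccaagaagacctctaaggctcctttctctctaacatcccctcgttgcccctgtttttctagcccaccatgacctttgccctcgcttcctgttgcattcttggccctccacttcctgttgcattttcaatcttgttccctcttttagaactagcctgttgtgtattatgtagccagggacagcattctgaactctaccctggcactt
Cxcl2: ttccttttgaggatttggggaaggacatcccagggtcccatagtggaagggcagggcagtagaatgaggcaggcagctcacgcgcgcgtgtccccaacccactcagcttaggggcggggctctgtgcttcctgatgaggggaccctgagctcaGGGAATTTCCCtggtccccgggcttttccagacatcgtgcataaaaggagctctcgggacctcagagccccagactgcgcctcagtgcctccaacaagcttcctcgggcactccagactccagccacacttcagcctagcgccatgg
Cxcl2 held 2 matches to the NF-κB consensus, which overlap on opposite strands, and Ccl3 and Ccl6 held none of the 3 motifs in this window. Promoters were found for 29 members, of which 6 held the NF-κB consensus, 8 TATAAA and 6 the AP-1 letters. Of 27025 promoters of all genes, 4.35%, 14.2% and 7.93% did. The motifs were chosen after the 3 ligands were known.

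The remaining CC ligands varied without passing a test. Ccl4, a neighbour of Ccl3, ranged from 0 to 9.76 RPKM and was at 0 in 4 libraries. Ccl9, which binds Ccr1, ranged from 0.0394 to 3.14 RPKM. Ccl3, Ccl4, Ccl5, Ccl6 and Ccl9 lie together at chr11:83525778-83664683. Ccl25, a thymic and gut ligand of Ccr9, was the most even member at 5.17 to 9.23 RPKM, although Ccr9 was at 0 throughout. Elavl1 overlaps it on the other strand, and without strand in the counting the reads cannot be assigned. Ccl17, the ligand of Ccr4, stood at 1.34, 4.84, 3.94, 2.18 and 4.11 RPKM in Tie2-Ezh2-KO and 3.38, 6.87, 6.58, 3.72 and 5.49 in Vav-Ezh2-KO. The groups overlapped (log2 change -0.71 ± 0.33, limma adjusted p = 0.294), and Ccr4 did not exceed 0.0345 RPKM. 

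Ccl27a, a skin ligand, overlaps Il11ra1 on the other strand, so its reads cannot be assigned either. It stood at 0.196, 0.172 and 0.332 RPKM in Tie2-Ezh2-WT, 0.366 and 0.444 in Vav-Ezh2-WT, 0.727, 1.34, 0.644, 0.508 and 0.550 in Tie2-Ezh2-KO and 0.555, 0.481, 0.687, 1.42 and 0.759 in Vav-Ezh2-KO. Every KO library of either line lay above every WT library, as was so for 3.29% of all genes tested in Tie2-Ezh2-KO and 0.601% in Vav-Ezh2-KO (0.397% of divisions by chance). The log2 change was 0.90 ± 0.30 in Tie2-Ezh2-KO (limma adjusted p = 0.175) and 0.93 ± 0.29 in Vav-Ezh2-KO (limma adjusted p = 0.542), with an exact permutation p of 0.00794 in each against the same WT libraries, and under none of 20 alternatives did either pass.

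Several ligands appeared in single libraries. Ccl5 had 131 reads (12.4 RPKM) in Vav-Ezh2-WT 6 and 0 in the other 14 libraries, and Ccl2, the ligand of Ccr2, had 73 reads (5.73 RPKM) in Tie2-Ezh2-WT 10 and 1 read in Vav-Ezh2-KO 10. Cxcl1 had 12 reads, all in Vav-Ezh2-KO 26. In all, 7 members had reads in 1 library only. With few cells and amplification by 16 PCR cycles, reads are not independent molecules, and floors given here cover counting error only. In bulk samples a few cells with much RNA of a gene and many cells with little cannot be told apart, nor can fewer cells of a type and less RNA per cell.

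Of the other CXC ligands, Cxcl10, an interferon-induced ligand of Cxcr3, ranged from 0.115 to 2.61 RPKM in all 15 libraries. Art3 overlaps it on the other strand. Cxcl3 and Cxcl5, neighbours of Cxcl2 that also bind Cxcr2, ranged up to 1.59 and 3.52 RPKM, and Cxcl3 had a log2 change of 1.16 ± 0.46 in Tie2-Ezh2-KO against WT (limma adjusted p = 0.310). Cxcl12 had 17 reads in Vav-Ezh2-KO 9, 5 in Vav-Ezh2-WT 4, 2 in Tie2-Ezh2-KO 9 and 0 elsewhere. In the libraries at 0, the limit of 3 reads allows at most 0.0403 RPKM.

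Among the receptors, Cxcr2, which binds Cxcl1, Cxcl2, Cxcl3 and Cxcl5 and is known from neutrophils, was far above the rest. It stood at 63.9, 88.5 and 67.1 RPKM in Tie2-Ezh2-WT, 38.0 and 42.3 in Vav-Ezh2-WT, 55.6, 68.0, 74.5, 50.8 and 78.2 in Tie2-Ezh2-KO and 61.0, 46.2, 77.1, 52.0 and 89.4 in Vav-Ezh2-KO. The KO groups overlapped fully, and the Vav-Ezh2-WT libraries were the lowest of the 15. Between the WT groups the log2 change was 0.85 ± 0.16 (limma adjusted p = 0.106, and 0.0471 without Tie2-Ezh2-WT 12, range 0.0367 to 0.958 over 15 alternatives), and the interaction was -0.82 ± 0.30 (limma adjusted p = 0.539).

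Ccr1, the receptor shared by Ccl3, Ccl5, Ccl6 and Ccl9, stood at 2.02, 1.46, 0, 0.277 and 0 RPKM in Tie2-Ezh2-KO and 5.40, 2.55, 1.32, 1.66 and 0.996 in Vav-Ezh2-KO. In WT it stood at 1.60, 2.70 and 0.0258 RPKM in Tie2-Ezh2-WT and 3.37 and 2.50 in Vav-Ezh2-WT. Of the 5 Tie2-Ezh2-KO libraries, 3 lay below all Vav-Ezh2-KO libraries. The log2 change between knockouts was -1.91 ± 0.66 (limma adjusted p = 0.138), and it passed only without Tie2-Ezh2-KO 9 (-2.28 ± 0.64, limma adjusted p = 0.0461, range 0.0461 to 0.294 over 20 alternatives). Ccr2, the receptor of Ccl2, ranged from 0.175 to 2.30 RPKM and Cxcr3, the receptor of Cxcl10, from 0.238 to 4.99 RPKM, each with reads in all 15 libraries.

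Cxcr4, the receptor of Cxcl12, was near the limit of detection with at most 20 reads. It stood at 0.415, 0.469, 0.0744, 0.411 and 0.377 RPKM in Tie2-Ezh2-KO and 0.0976, 0.120, 0.0654, 0.0958 and 0.0960 in Vav-Ezh2-KO. The WT values were 0, 0.244 and 0.0134 RPKM in Tie2-Ezh2-WT and 0.222 and 0.193 in Vav-Ezh2-WT. In Tie2-Ezh2-KO, 4 of 5 libraries lay above all other libraries and replicate 11 did not. The log2 change between knockouts was 0.83 ± 0.29 (limma adjusted p = 0.138), and 1.07 ± 0.25 (limma adjusted p = 0.0340, range 0.0340 to 0.251 over 19 alternatives) without Tie2-Ezh2-KO 11. Of the knockouts, only Tie2-Ezh2-KO had libraries above 0.2 RPKM, so Cxcr4 was tested through the group where it was high. No conclusion is drawn from that comparison. The interaction was 1.45 ± 0.50 (limma adjusted p = 0.478). Cxcr7, a scavenger of Cxcl12, had 5, 16, 0, 11 and 8 reads in Tie2-Ezh2-KO, 3 in Vav-Ezh2-KO 26, 5 in Vav-Ezh2-WT 6 and 0 elsewhere. Its log2 change was 0.76 ± 0.31 in Tie2-Ezh2-KO against WT and 0.75 ± 0.31 between the knockouts (limma adjusted p = 0.339 and 0.225), with an interaction of 1.07 ± 0.49 (limma adjusted p = 0.726). Over the alternatives these ran from 0.22 to 2.93, 0.22 to 3.17 and 0.29 to 5.17. Cxcr7 exceeded 0.2 RPKM only in Tie2-Ezh2-KO libraries, so it was tested only through the group where it was high. No conclusion is drawn from these tests. Ccr7, a homing receptor, had a log2 change of 0.74 ± 0.32 in Tie2-Ezh2-KO against WT (limma adjusted p = 0.394), where WT was at 0 and the size depends on the pseudocount. It too was tested only through Tie2-Ezh2-KO, where it was high, so no conclusion is drawn from the test.

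Chemokine-related genes outside the name rule were examined as a list of 15, of which 12 were tested. Dpp4, a protease that trims chemokines, was the 1 gene that passed against WT in Tie2-Ezh2-KO, with a mean of 3.52 ± 0.520 RPKM (SD, n = 5) against 1.45 ± 0.254 in WT (n = 5) and a log2 change of 1.17 ± 0.23 (limma adjusted p = 0.00967), passed under 20 of 21 alternatives. With the WT of the same line it did not pass (1.08, limma adjusted p = 0.0939). None passed in Vav-Ezh2-KO against WT or between the knockouts, with 2 and 3 at an unadjusted limma p under 0.05, beside 7.93% and 16.6% of all genes. In Tie2-Ezh2-KO against WT, where Dpp4 passed, 2.73% of all genes did. The platelet chemokine Pf4 ranged from 7.71 to 179 RPKM within and across groups, and Mif was the most abundant of the list at 1240 to 2500 RPKM. Of 33 genes of chemokine receptor signalling, 32 were tested between the knockouts and 1 passed, no larger a share than the 3.51% of all genes. That was Gnai1, a Gi protein subunit, with a log2 change of 1.68 ± 0.44 (limma adjusted p = 0.0496) and passed under 5 of 20 alternatives. It passed without Tie2-Ezh2-KO 9 or Vav-Ezh2-KO 9 and not without any of the other 8 libraries (0.0677 to 0.120), nor under 7 other settings (0.0524 to 0.0965), limma-voom among them. Its mean level was 2.0 RPKM in Tie2-Ezh2-KO and 0.458 in Vav-Ezh2-KO, beside 87.0 and 105 RPKM for its abundant relative Gnai2. The paper reports Gnai1 as a Wnt-associated gene with more accessible chromatin at its transcription start and higher expression in Tie2-Ezh2-KO EMPs. Here its log2 change against WT in Tie2-Ezh2-KO was 1.43 ± 0.43 (limma adjusted p = 0.107). None of the 32 passed against WT in either knockout, with 4 and 5 at an unadjusted limma p under 0.05, beside 11% and 7.93% of all genes.

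Markers of myeloid cells were read beside these results, although the gate excluded lineage-positive cells and the paper lists antibodies to a macrophage antigen (F4/80) and a granulocyte antigen (GR1) in the dye of the other lineage antibodies. Of 12 macrophage markers, 7 exceeded 1 RPKM in any library, C1qa was at 0 in all, and Lyz2 was the most abundant. Their summed level was 113, 94.3 and 73.9 RPKM in Tie2-Ezh2-WT, 101 and 95.7 in Vav-Ezh2-WT, 81.2, 87.2, 80.7, 83.0 and 88.1 in Tie2-Ezh2-KO and 129, 171, 108, 99.3 and 84.6 in Vav-Ezh2-KO. Tie2-Ezh2-KO libraries were thus among the lowest. Cd68 was the 1 of the 8 tested that passed between the knockouts (-0.71 ± 0.17, limma adjusted p = 0.0333, passed under 11 of 20 alternatives), but not without Tie2-Ezh2-KO 7, 11 or 17 (0.0606, 0.0653 and 0.0508) or Vav-Ezh2-KO 1, 26 or 28 (0.0690, 0.0824 and 0.0940), nor without a filter (0.0513), without the trend (0.0622) or by limma-voom (0.0851). Of the 8, 7 were lower in Tie2-Ezh2-KO than in Vav-Ezh2-KO (median log2 change -0.36, against 0.04 over all genes), and between the WT groups 6 of 8 were lower in Tie2-Ezh2-WT (median -0.27). Csf1r stood at 0.447 RPKM in Tie2-Ezh2-WT 12 and 0.523 in Tie2-Ezh2-KO 9 and at 2.36 to 7.56 in the other 13 libraries. Tie2-Ezh2-WT 12, the most deeply sequenced library, was also the lowest WT library for Ccl3, Ccl6 and Ccr1. Of 10 granulocyte markers, Mpo was the most abundant, Ngp and Camp were at 0 in all libraries, and 2 passed as lower in Tie2-Ezh2-KO against WT, namely Mpo (-0.75 ± 0.18, limma adjusted p = 0.0414, passed under 9 of 21 alternatives) and Elane (-2.20 ± 0.49, limma adjusted p = 0.0261, passed under 13 of 21). Of the 8 tested, 3 were higher in Tie2-Ezh2-KO against WT, and between the knockouts 4 of 7 were higher, with a median log2 change of 0.00. With the WT of the same line neither passed (Mpo -0.59, limma adjusted p = 0.312, Elane -2.04, 0.170), nor did either without a filter (0.101 and 0.0795) or without the trend (0.114 and 0.0704), nor Mpo with a pseudocount of 1 (0.0506), by quantile scaling (0.0676) or with a common median (0.0805). Mpo did not pass without Tie2-Ezh2-WT 10, either Vav-Ezh2-WT library or Tie2-Ezh2-KO 7, 9 or 13 (0.0655 to 0.117), nor Elane without Tie2-Ezh2-WT 10 or 12, Vav-Ezh2-WT 4 or Tie2-Ezh2-KO 7 or 13 (0.0506 to 0.0747). Their summed level was 1320, 1750 and 1400 RPKM in Tie2-Ezh2-WT, 2130 and 1960 in Vav-Ezh2-WT, 1120, 807, 1420, 819 and 1330 in Tie2-Ezh2-KO and 2230, 1480, 1380, 2100 and 1370 in Vav-Ezh2-KO. The part of either cell type in the chemokine values was not tested.

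Other lists were read for RNA of further cell types. Between the knockouts, Treml1 passed as lower among 9 megakaryocyte markers, of which 2 were higher, and Cpa3 as lower among 4 mast cell markers in the table, of which 2 were higher. Amn passed as higher among 7 tested of visceral endoderm, all 7 higher, as were all 6 tested between the WT groups (median 0.95), with all 7 positive in the interaction. Hbb-bh1 and Hba-x passed as higher among 5 of primitive erythroid cells, whose sum was 480 ± 270 RPKM in Tie2-Ezh2-KO and 142 ± 43.3 in Vav-Ezh2-KO (SD, n = 5 each). Against WT in Tie2-Ezh2-KO, Gp1ba of the megakaryocyte list passed as lower (-0.94 ± 0.24, limma adjusted p = 0.0495). Amn (3.01 ± 0.45, 0.00155), Hbb-bh1 (1.18 ± 0.29, 0.0441) and Hba-x (6.33 ± 0.62, 8.88e-05) passed as higher. Hba-x also passed in the interaction (6.41 ± 1.24, limma adjusted p = 0.0457). Some of these lie close to the threshold, and the calls in these further lists were not examined under the alternatives. None of the 8 endothelial and 4 mesenchymal markers tested passed in any comparison, nor did any of the 8 EMP markers. All 8 endothelial markers were nonetheless higher in Tie2-Ezh2-KO than in Vav-Ezh2-KO (median log2 change 0.53, 4 at an unadjusted limma p under 0.05, beside 16.6% of all genes), and 7 of 8 were higher against WT (median 0.47). The same direction was seen between the WT groups (7 of 8 higher in Tie2-Ezh2-WT, median 0.32), with 5 of 8 positive in the interaction. No list had a gene that passed in Vav-Ezh2-KO against WT. Over all genes, 3.51% passed between the knockouts, 2.73% in Tie2-Ezh2-KO against WT and 0.181% in the interaction. Visceral endoderm markers summed to 192 RPKM in Tie2-Ezh2-WT 4 and 266 in Tie2-Ezh2-KO 7, and to 10.2 to 34.3 in the other libraries. Their part in the chemokine values was not tested.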

How the data were processed

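RNA from sorted EMPs had been amplified with the SMARTer Ultra Low kit, made into libraries with Nextera XT and sequenced as 75 bp single-end reads. According to the submitters' processing notes and the study's methods, the authors aligned reads to GRCm38 with TopHat2 2.0.13, assigned reads to genes of RefSeq by featureCounts, and deposited the outcome as RPKM (reads for each kilobase of gene and each 1e6 reads). Strand was not marked by the kit. The labels do not assign libraries to experiments, so no batch term could be fitted. Whether the Tie2 and Vav lines were processed together is not known, and line and batch cannot be told apart. The p-values measure the spread between libraries from separate embryos' YS.

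From the RPKM values, whole reads were recovered by the length of single-exon genes (586 genes gave each library's total), and all 16877 genes above 0 came out whole within 0.001 reads. Tests used limma 3.58.1 in R 4.3.3 (moderated test with trend) on log2(RPKM + 0.2), with Benjamini-Hochberg adjustment over all genes tested and a threshold of 0.05. Single members were also given a two-sided exact permutation test. Named members passed a test or averaged at least 1 RPKM in 1 of the 4 groups, or were Cxcl12, Cxcr4 or Cxcr7 (17 in all). Others are named where the unadjusted p was under 0.05 or reads came from few libraries, or as partners or neighbours of these. Which members to name and the gene lists were chosen with earlier results of these data known. Shares of a list beside those of all genes are therefore description only. Markers of megakaryocytes, mast cells, endothelium, mesenchyme, visceral endoderm and primitive erythroid cells were listed too. Alternatives were the pseudocount, the filter, the trend, 2 scalings, library weights, limma-voom, WT of the same line, 1 fit of all 15 libraries and each library left out.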

Additional observations from a re-analysis of the deposited data

Results flagged for a closer look

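The knockouts differed in Ccl6 (log2 change -1.22), Ccl3 (-1.96) and Cxcl2 (-1.88), as tested directly between Tie2-Ezh2-KO and Vav-Ezh2-KO. Since both share WT, this is also the difference of their changes against pooled WT. Against the WT of each line the difference did not pass for any of the 3.

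Single libraries lay far from the other 4 of their group on the log2 scale in 10 of 48 groups examined (5 libraries each). By chance the rule flags about 1 in 20 groups of varying values, but in 8 of the 10 the other 4 libraries were at 0, so that 1 read is enough and this rate does not apply. Ccl5 stood at 12.4 RPKM in Vav-Ezh2-WT 6 and Ccl2 at 5.73 in Tie2-Ezh2-WT 10, against 0 in the other WT libraries, and Ccl2 at 0.0736 in Vav-Ezh2-KO 10. Cxcr7 stood at 0.112 RPKM in Vav-Ezh2-KO 26 and 0.108 in Vav-Ezh2-WT 6. Cxcl12 stood at 0.0183 RPKM in Tie2-Ezh2-KO 9, 0.129 in Vav-Ezh2-KO 9 and 0.0469 in Vav-Ezh2-WT 4. Low values were Cxcr4 at 0.0744 RPKM in Tie2-Ezh2-KO 11, beside 0.377 to 0.469, and Ccr1 at 0.0258 RPKM in Tie2-Ezh2-WT 12, beside 1.60 to 3.37.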

How the results depend on the processing

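Ccl3, Ccl6 and Cxcl2 were lower in Tie2-Ezh2-KO than in Vav-Ezh2-KO under all 20 alternatives, and passed under 14, 14 and 13 of them. The number of members that passed was 3 with all libraries, 1 without a filter on low values, where more genes are tested, and 1 by limma-voom, and 0 to 4 with a library left out (0 without Vav-Ezh2-KO 1 or 9, 4 without Tie2-Ezh2-KO 9). Against WT, the count in Tie2-Ezh2-KO was 0 to 1 with a library left out (1 without Tie2-Ezh2-WT 12). The interaction gave 0 to 1 (Ccl5, without Vav-Ezh2-WT 4, where the lone Vav-Ezh2-WT library is assumed to vary like the others). The WT groups gave 1 with library weights (Cxcr2) and 0 to 2 with a library left out.

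With the WT of the same line, the log2 change of Cxcl2 turned to 0.08 in Tie2-Ezh2-KO and to -0.31 in Vav-Ezh2-KO, and its interaction ran from -0.26 to 1.03 with a library left out. The interaction ran from -1.37 to -0.5 for Ccl3 and from -2.2 to -0.51 for Ccl6 with a library left out. Ccl6 in Vav-Ezh2-KO was -0.07 with a pseudocount of 1 and -0.45 to 0.39 with a library left out. Between the WT groups Ccl6 was -0.02 with a pseudocount of 0.05, -0.83 by limma-voom and -0.71 to 0.98 with a library left out. Tnfaip3 there was -1.58 to 0.00 with a library left out. Ezh2 in Vav-Ezh2-KO was 0.00 by quantile scaling, 0.01 with a common median and -0.10 to 0.02 with a library left out. None of these passed. Of 76 tests of the 17 members named for level, calls or Cxcl12 signalling, 25 changed sign under at least 1 alternative, none of them called. Over all alternatives, the genes that passed numbered 187 to 533 in Tie2-Ezh2-KO and 0 to 2 in Vav-Ezh2-KO against WT, 320 to 969 between the knockouts, 2 to 78 in the interaction and 0 to 99 between the WT groups. Between the knockouts, log2 changes ran from -3.62 to -0.98 for Ccr1, 0.29 to 1.59 for Cxcr4 and 0.97 to 2.29 for Gnai1. Scaling to a common median moved the median log2 change of all genes in the interaction from 0.06 to 0.11, and quantile scaling moved it to -0.014.

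The median number of members seen per library was 14 above 0.2 RPKM, 9 above 1 RPKM and 19 with any read. No paired analysis was made because the labels name no litter or other pairing of libraries, and replicate numbers are not said to mark one.

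Few cells per library, 2 Vav-Ezh2-WT libraries and low reads limit these results. One read of Cxcl2 is worth 0.0225 to 0.0887 RPKM, so small differences among low members were not detectable at this depth.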
